A study of Mus musculus with 60 samples.

Results

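Transcripts of 10 genes that bring glucose into the cell or store it as glycogen were followed through every whole-fat library of the series. The genes are Slc2a1, Slc2a4, Hk2, Pdk4, Pygl, Gys1, Gys2, Gbe1, Ppp1r3b and Ppp1r3c, taken by name as 10 of the 55011 rows of a table of read counts per gene. The study asked what regulatory T (Treg) cells do in fat, and 52 of its 60 RNA sequencing libraries came from whole tissue, 38 from brown adipose tissue (BAT) in 12 groups and 14 from subcutaneous adipose tissue (SAT) in 4 groups. All mice were 8-week-old males. Mice of the strain B6.Foxp3.DTR were DTR+, whose cells that express Foxp3 also bear a receptor for diphtheria toxin, or DTR-, and both genotypes received diphtheria toxin (DT), which is used to remove Treg cells from DTR+ animals. The sets named D4 held DTR+ and DTR- mice with 4 libraries per group in BAT and in SAT. The sets named D3 held the same genotypes with 3 libraries per group in each fat, and their titles add PBS. Whether D3 and D4 stand for days is not stated. A further set in BAT held DTR+ mice given DT and CL, DTR- mice given DT and CL, and DTR- mice given DT and PBS, with 3 libraries each. CL is taken here to mean CL-316243, which stimulates the beta-3 adrenergic receptor that noradrenaline uses on adipocytes. Wild-type C57BL/6J mice received PC61, an antibody against CD25 on Treg and activated T cells, or an isotype antibody (3 libraries each). DTR+ mice given DT also received an antibody against interferon gamma (aIFNg) or an isotype antibody (3 libraries each). Mice housed at 4 degrees gave the remaining 3 BAT libraries, which carry WT in their titles, DTR- as genotype label and PBS without DT as treatment label.

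GLUT4 (Slc2a4) is the glucose transporter that insulin moves to the surface of fat and muscle cells, while GLUT1 (Slc2a1) is the widespread transporter of basal uptake. Hexokinase 2 (Hk2) traps glucose as glucose-6-phosphate, which feeds glycolysis or glycogen. Glycogen synthases (Gys1, the form known from muscle, and Gys2, the form known from liver) lengthen the chain, the branching enzyme (Gbe1) adds its branches and the phosphorylase known from liver (Pygl) takes it apart. Ppp1r3b and Ppp1r3c are subunits that bring protein phosphatase 1 to the glycogen particle, where it activates synthase and inactivates phosphorylase. Pdk4 phosphorylates pyruvate dehydrogenase and so limits the use of pyruvate made from glucose inside mitochondria. Brown fat takes up much glucose when it makes heat and keeps a glycogen store.

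Whole-fat libraries held 3007241 to 9673342 counts, and all 10 genes passed the filter on low counts in each comparison. Foxp3 had 0 to 29 counts per whole-fat library, too few to check how far Treg cells were removed. No label states whether replicates are separate mice, so p-values measure the spread between these libraries, which may be technical. The 7 brown adipocyte markers (Ucp1, Cidea, Elovl3, Dio2, Ppara, Cox8b and Letmd1) summed to 9789 to 30400 CPM (counts scaled to library size) in BAT libraries and 308 to 1637 CPM in SAT libraries. The 13 skeletal muscle markers summed to 4.73 to 9691 CPM, with most of that range inside single groups, and none of them was at 0 over a whole group. The strand used in counting is not given in the sources used here, so reads of Slc2a1, Hk2, Pygl, Gys1 and Ppp1r3b cannot be told apart from those of genes that overlap them on the other strand.

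Per kilobase of exon, Pdk4 had the highest level of the 10 genes in BAT, with a median of 290 CPM per kb over the 38 libraries. Slc2a4 had a median of 138 CPM per kb, Pygl 124, Gbe1 71.3, Hk2 58.1, Gys1 54.1, Ppp1r3b 54.0, Gys2 43.7 and Ppp1r3c 36.8 CPM per kb. Slc2a1 stood far below these at 1.69 CPM per kb. In SAT the order was different, with Slc2a4 at 81.8, Pygl at 75.1, Gys1 at 37.1, Gbe1 at 36.5 and Pdk4 at 15.5 CPM per kb over the 14 libraries. Across the 12 BAT groups the mean level varied most in Ppp1r3b, by 17.4-fold between 892 ± 271 CPM in WT mice with isotype and 51.4 ± 20.2 CPM in DTR+ mice with CL (SD, n = 3 each). Pygl varied by 11.4-fold, Slc2a4 by 9.89-fold, Slc2a1 by 7.74-fold and Pdk4 by 7.24-fold. The other genes varied by 3.15-fold (Ppp1r3c) to 3.98-fold (Hk2). DTR+ mice with CL held the lowest mean of Slc2a4, Pygl, Gys1, Gys2, Gbe1 and Ppp1r3b and the highest mean of Slc2a1.

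**Figure D1:**
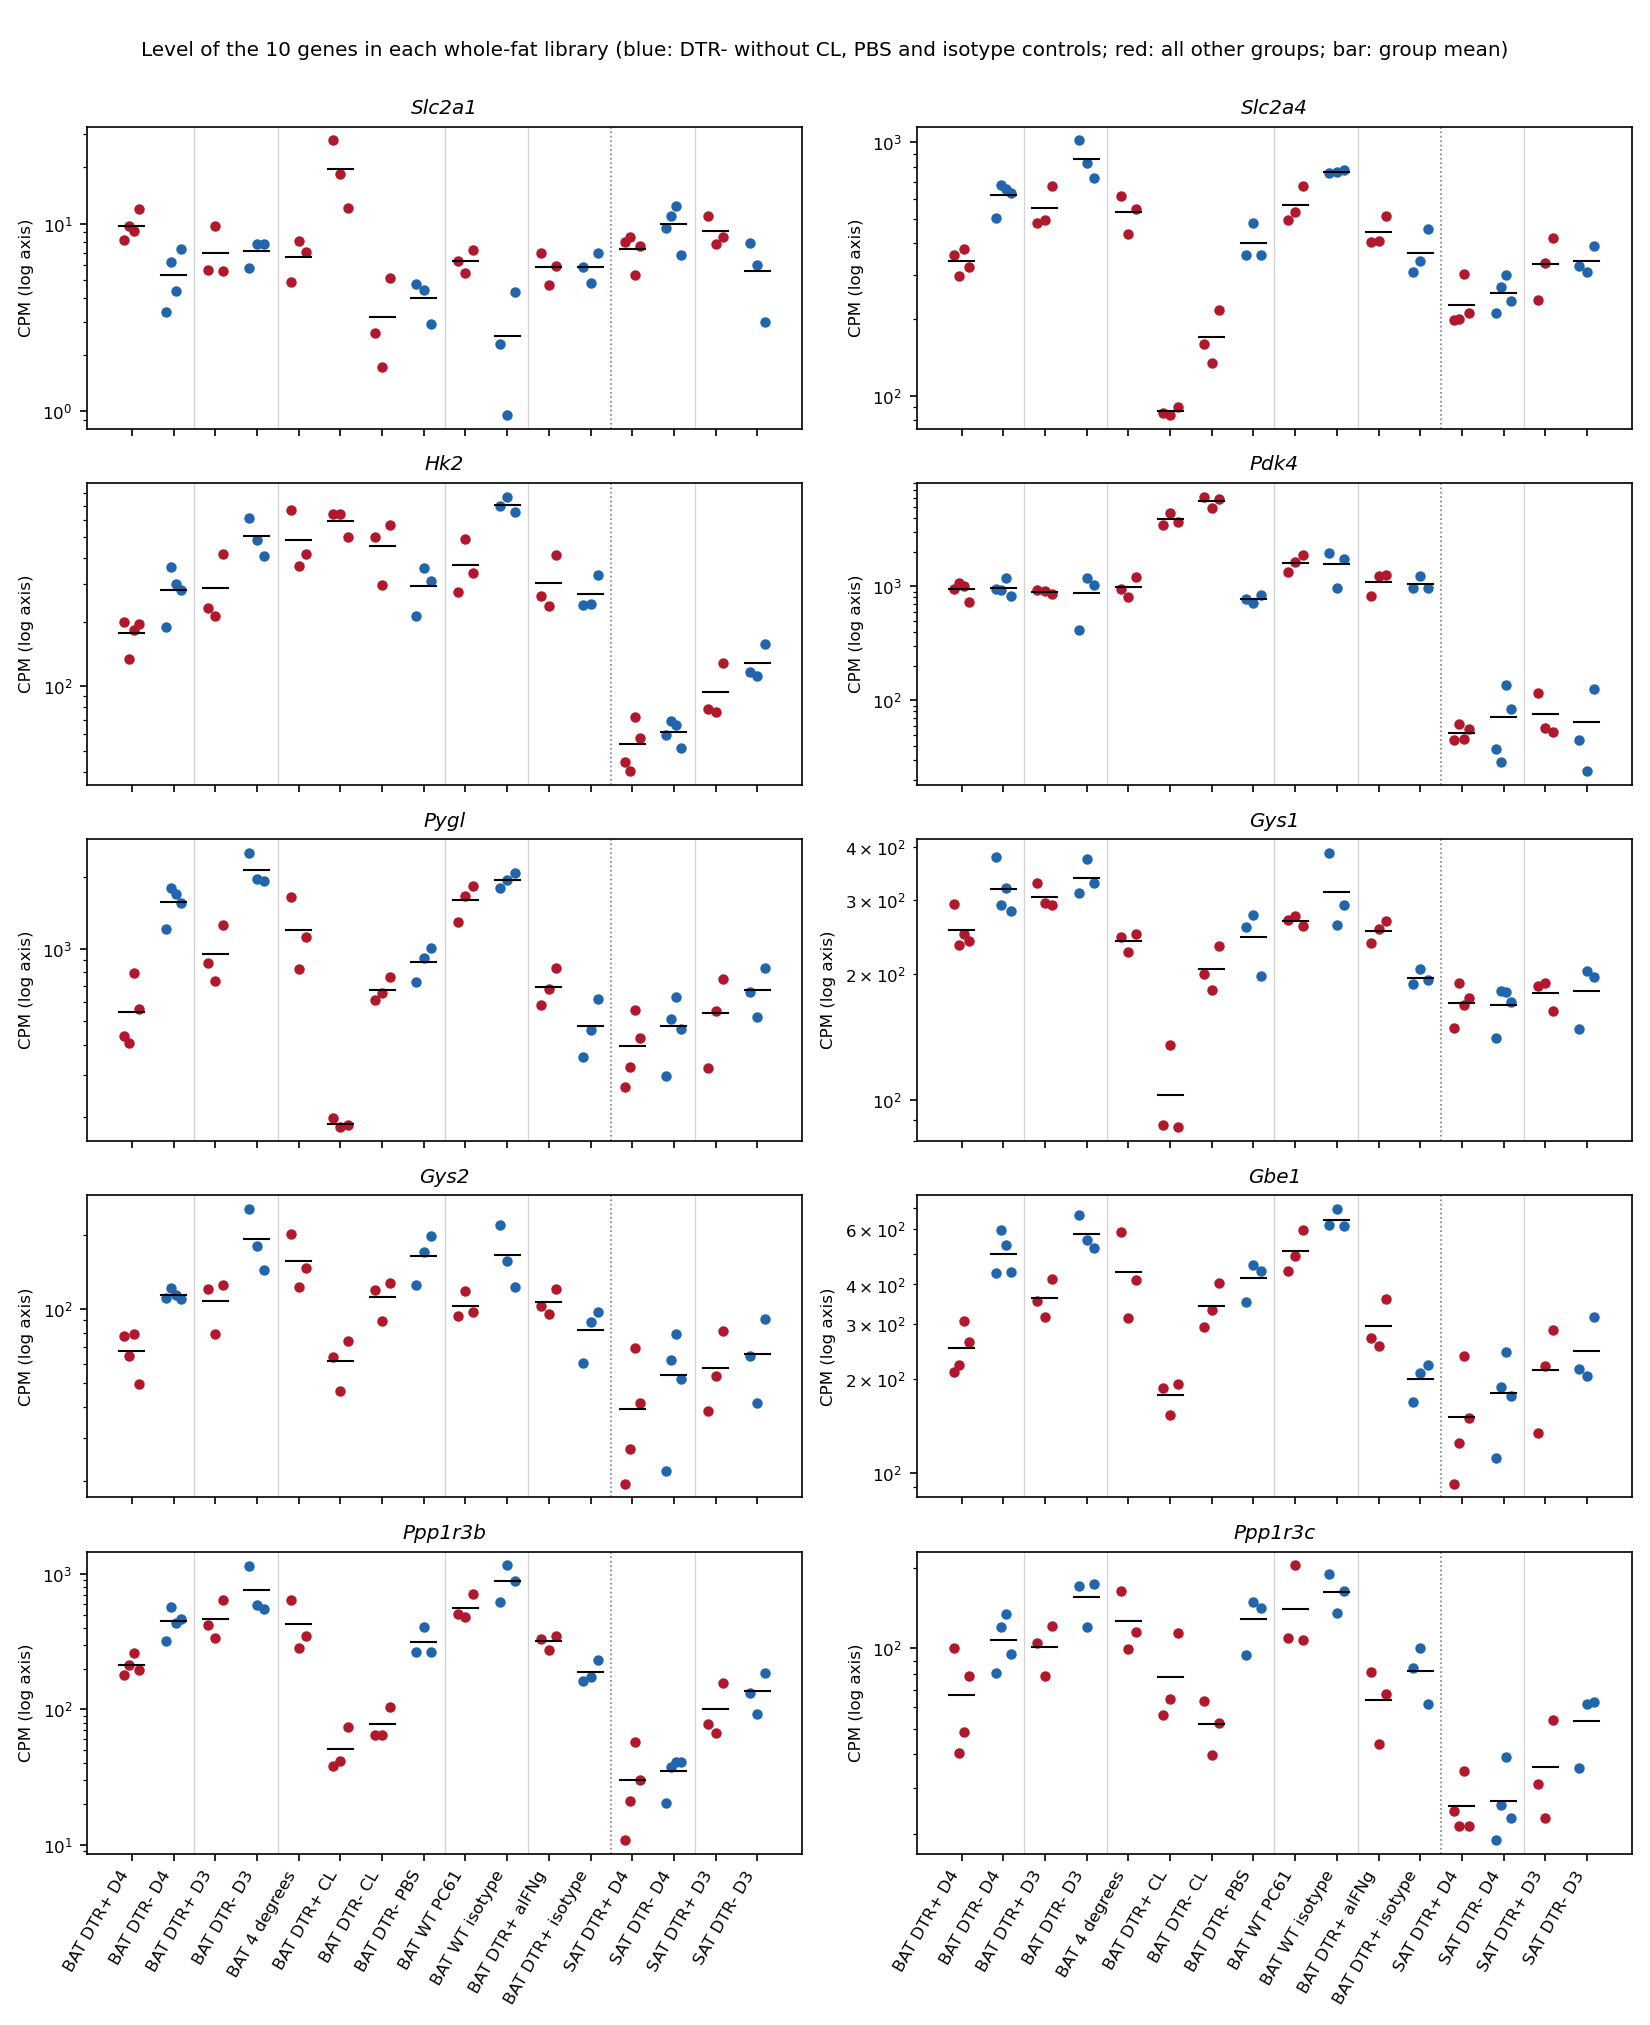
Level of each of the 10 genes in every whole-fat library, in CPM on a log axis, by group. Points are libraries and bars are group means (n = 4 in the D4 groups and 3 in the others). In DTR+ mice with CL the Pygl points lie between 181 and 197 CPM, below all other BAT libraries, and Pdk4 lies between 3484 and 6131 CPM in both CL groups, above all other BAT libraries.

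In BAT of the D4 set, DTR+ mice were set against DTR- mice, both given DT. Of the 10 genes 6 were lower and none was higher at an edgeR adjusted p under 0.05, against 16.1% of the 11695 genes tested that were called, 8.73% higher and 7.36% lower. They were the insulin-moved transporter Slc2a4, Hk2, the phosphorylase Pygl, the synthase Gys2, the branching enzyme Gbe1 and the phosphatase subunit Ppp1r3b. The median log2 fold change of the 10 genes was -0.71, against 0.02 over all genes tested. In bulk tissue, fewer cells of a type and less RNA per cell cannot be told apart.

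Pygl had the largest decrease, with 435, 405, 793 and 563 CPM in DTR+ BAT, against 1213, 1799, 1702 and 1556 CPM in DTR- BAT. The groups did not overlap. Its log2 fold change was -1.50 ± 0.24 (SE, edgeR adjusted p = 0.00494), a 2.83-fold lower level in DTR+ mice. The gene lies on chromosome 12 from 70190811 to 70231488 (mm10, minus strand). Ppp1r3b had 178, 211, 262 and 195 CPM in DTR+ mice, against 319.6, 567, 435 and 469 CPM in DTR- mice. Every DTR+ library was below every DTR- library, and the log2 fold change was -1.07 ± 0.17 (SE, edgeR adjusted p = 0.00137). Gbe1 had 211, 221, 307 and 262 CPM in DTR+ mice, against 434, 595, 534 and 437 CPM in DTR- mice, again without overlap, with a log2 fold change of -0.98 ± 0.13 (SE, edgeR adjusted p = 0.000169). Ppp1r3b lies on chromosome 8 (35375739 to 35388139, plus strand) and Gbe1 on chromosome 16 (70313949 to 70569716, plus strand). Of the synthases, Gys2 had 78.1, 64.5, 79.0 and 49.6 CPM in DTR+ mice, against a narrow 112, 123, 114 and 111 CPM in DTR- mice (chromosome 6, 142422613 to 142473109, minus strand). Gys2 did not overlap either and fell by 0.74 ± 0.13 on the log2 scale (SE, edgeR adjusted p = 0.000949). Gys1 gave -0.31 ± 0.11 (SE, edgeR adjusted p = 0.0588), and its groups overlapped. Gys1 was called in DESeq2 (adjusted p = 0.041), with both fats fitted together (edgeR adjusted p = 0.0459) and without DTR+ replicate 1 (0.0259) or DTR- replicate 4 (0.0418). When the D4 groups of both fats were fitted together, the calls of Gys2 (-0.77, edgeR adjusted p = 0.205) and Ppp1r3b (-1.10, edgeR adjusted p = 0.0714) were lost, with log2 fold changes as large as in BAT alone.

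On the uptake side, Slc2a4 (chromosome 11, 69942539 to 69948188, minus strand) had 359, 298, 380.0 and 321 CPM in DTR+ mice, against 502, 677, 656 and 632 CPM in DTR- mice. The groups did not overlap and the log2 fold change was -0.85 ± 0.11 (SE, edgeR adjusted p = 8.39e-05). Hk2 had 199.7, 134, 182 and 195 CPM in DTR+ mice, against 190.1, 361, 299 and 282 CPM in DTR- mice, with DTR- replicate 1 inside the DTR+ range. Its log2 fold change of -0.66 ± 0.19 (SE, edgeR adjusted p = 0.0393) passed narrowly. Leaving out any 1 library other than DTR- replicate 1 gave -0.71 to -0.54 and an edgeR adjusted p of 0.0561 to 0.0999. Slc2a1 lay on the other side, with 8.24, 9.73, 9.17 and 11.96 CPM in DTR+ mice, against 3.39, 6.24, 4.37 and 7.37 CPM in DTR- mice. The groups did not overlap, but the log2 fold change of 0.89 ± 0.30 (SE, edgeR adjusted p = 0.0574) did not pass the threshold. Slc2a1 was called in DESeq2 (adjusted p = 0.0346), with both fats fitted together (edgeR adjusted p = 0.0499) and without DTR- replicate 4 (edgeR adjusted p = 0.0446). Pdk4 gave -0.03 ± 0.13 (SE, edgeR adjusted p = 0.897) and Ppp1r3c -0.67 ± 0.32 (SE, edgeR adjusted p = 0.218), both with overlapping groups, though DESeq2 called Ppp1r3c (adjusted p = 0.0342). Other cell markers differed in the same libraries. Of the 10 macrophage and monocyte markers 8 were higher and none lower, summing to 608 to 1322 CPM in DTR+ mice, against 166 to 388 CPM in DTR- mice, with no marker at 0. Of the 7 brown adipocyte markers 4 were lower, summing to 9789 to 11330 CPM in DTR+ mice, against 15060 to 18130 CPM in DTR- mice. Of the 9 T and NK cell markers 3 passed the filter and were higher. The list summed to 20.6 to 53.9 CPM in DTR+ mice, against 6.10 to 7.79 CPM in DTR- mice. Of the 6 neutrophil markers 3 passed the filter and were higher. That list summed to 12.7 to 23.3 CPM in DTR+ mice, against 2.33 to 7.46 CPM in DTR- mice, where Ly6g was at 0. At such low levels a marker can pass the filter through the DTR+ group alone, so their shared direction carries no weight. General adipocyte markers summed to 13210 to 15330 CPM in DTR+ mice, against 14100 to 17250 CPM in DTR- mice. The part of these cell markers in the fall of the 6 genes was not tested. Skeletal muscle markers ranged over 27.3 to 8589 CPM in DTR+ mice, against 21.4 to 3696 CPM in DTR- mice, and with their sum as a covariate, chosen after seeing the data, the same 6 genes were called.

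The D3 set gave 3 lower genes and no higher one, against 3.52% of 11666 genes tested that were called, 2.24% higher and 1.29% lower. The 3 genes, Slc2a4, Pygl and Gbe1, were also called in the D4 set, which holds other libraries. Pygl had 874, 739 and 1257 CPM in DTR+ mice, against 2516, 1960.1 and 1924 CPM in DTR- mice, with a log2 fold change of -1.16 ± 0.20 (SE, edgeR adjusted p = 0.0226). Gbe1 had 353, 316 and 417 CPM in DTR+ mice, against 665, 554 and 524 CPM in DTR- mice, with a log2 fold change of -0.68 ± 0.13 (SE, edgeR adjusted p = 0.0101). Slc2a4 had 479, 491 and 675 CPM in DTR+ mice, against 1019, 828 and 722 CPM in DTR- mice, with a log2 fold change of -0.64 ± 0.16 (SE, edgeR adjusted p = 0.0457). In all 3 genes every DTR+ library lay below every DTR- library. Here and in the other comparisons overlap was examined for the 10 genes only, so no share over all genes can be given. With so few libraries per group, such separation can arise by chance. Gys2 did not overlap either, at 121, 79.4 and 125 CPM in DTR+ mice, against 256, 182 and 144 CPM in DTR- mice, but gave -0.84 ± 0.25 (SE, edgeR adjusted p = 0.141). Hk2 (-0.81 ± 0.31), Ppp1r3b (-0.71 ± 0.42) and Ppp1r3c (-0.62 ± 0.19) had log2 fold changes of like size with overlapping groups, at edgeR adjusted p of 0.261, 0.471 and 0.106. Gys1, Pdk4 and Slc2a1 lay between -0.15 and 0.04 on that scale. The median of the 10 genes was -0.66, against 0.02 over all genes tested.

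With 1 library left out, D3 calls were lost while the log2 fold changes stayed below 0, at -0.67 and -0.59 for Gbe1, -1.10 and -1.02 for Pygl, and -0.69 to -0.49 for Slc2a4. Without DTR+ replicate 1 none of the 3 was called (edgeR adjusted p = 0.0827 for Pygl, 0.077 for Gbe1 and 0.178 for Slc2a4). Without DTR+ replicate 2 Gbe1 (edgeR adjusted p = 0.0509) and Slc2a4 (edgeR adjusted p = 0.174) were lost, and without DTR- replicate 1 Pygl (edgeR adjusted p = 0.0784) and Slc2a4 (edgeR adjusted p = 0.119). Slc2a4 was also lost without DTR- replicate 2 (edgeR adjusted p = 0.0899). Other genes passed when a library was left out: Gys2 without DTR- replicate 3 (edgeR adjusted p = 0.0484), Hk2 without DTR+ replicate 3 (0.00304) and Ppp1r3c without DTR- replicate 2 (0.0252). With the muscle marker sum as covariate, only Gbe1 was called, since Pygl had an edgeR adjusted p of 0.0824 and Slc2a4 of 0.139. Fitted with the SAT libraries of the set, none was called, at edgeR adjusted p of 0.0619 for Pygl, 0.0716 for Slc2a4 and 0.143 for Gbe1. Of the macrophage and monocyte markers 1 of 10 was higher, with sums of 370 to 419.6 CPM in DTR+ mice, against 161 to 285 CPM in DTR- mice. Letmd1 alone of the brown adipocyte markers was called, as lower. That list summed to 12760 to 16000 CPM in DTR+ mice, against 19200 to 23410 CPM in DTR- mice. The part of either list in these values was not tested. No gene of the table was called for a difference between the D4 and D3 sets in its DTR+ over DTR- change (0% of 12757 genes tested in edgeR, 732 at an unadjusted p under 0.05, and 0 of the 10 genes in DESeq2).

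**Figure D2:**
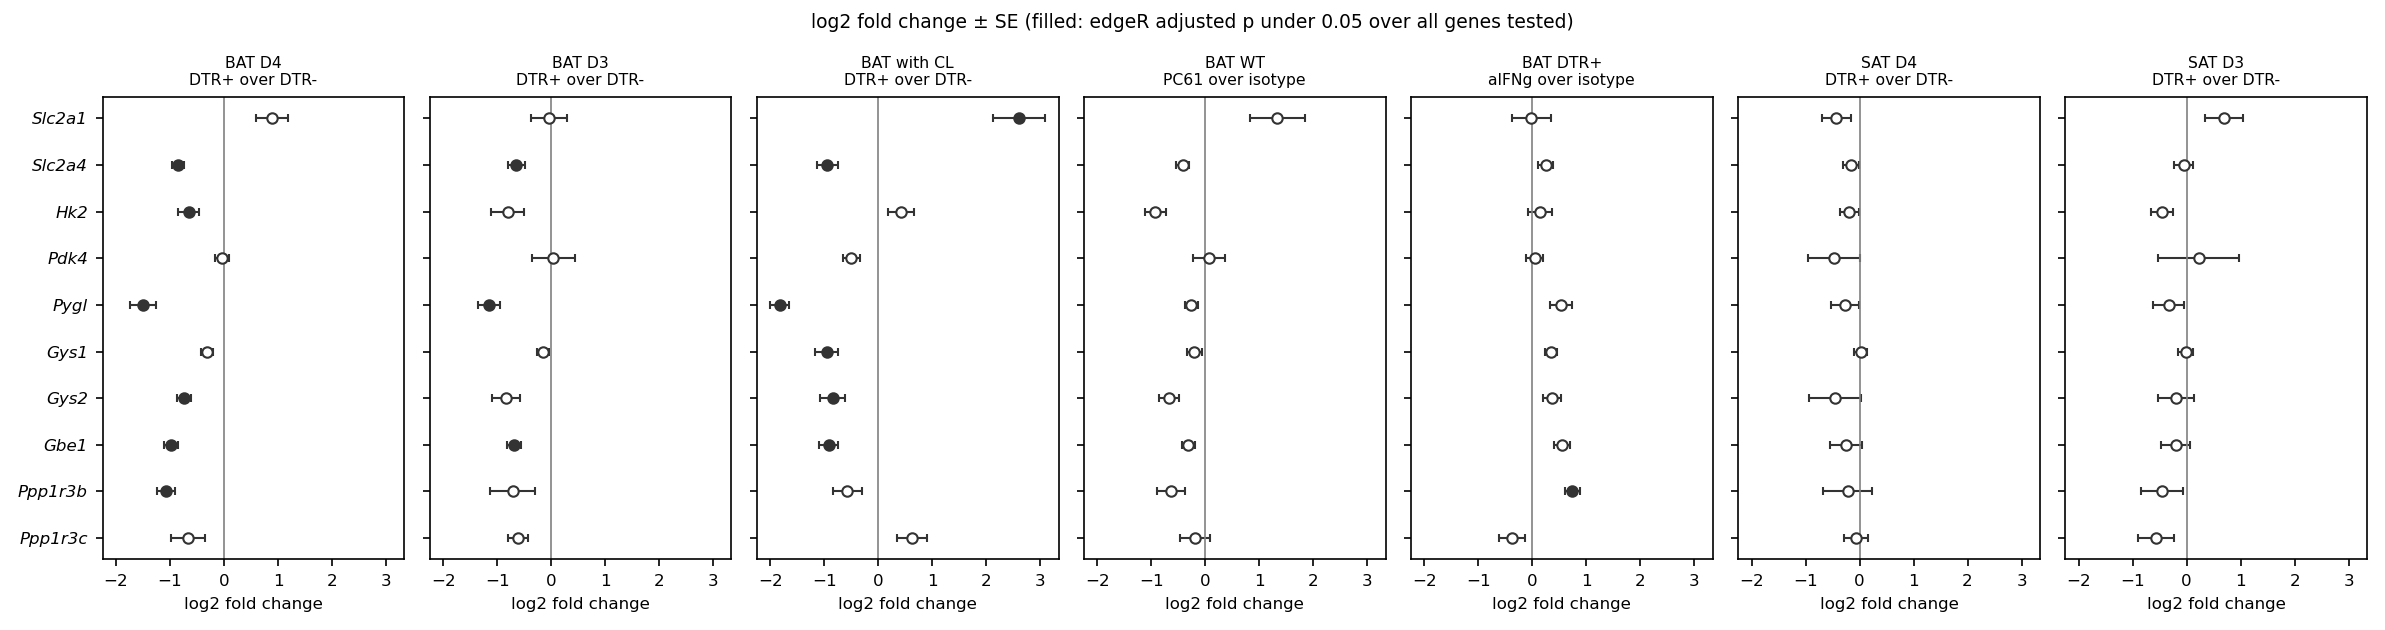
Log2 fold change with its SE for each of the 10 genes in 7 comparisons of DTR+ with DTR- mice given DT, or of PC61 or the antibody against interferon gamma with isotype, each as DTR+ or antibody group over its control. Filled points passed an edgeR adjusted p under 0.05 over all genes tested. Pygl lies at -1.50 in the D4 set, -1.16 in the D3 set and -1.82 under CL, while all 20 points in SAT are open.

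SAT gave no call among the 10 genes in either set, against 0.314% of 12728 genes tested in D4 (0.299% higher and 0.0157% lower) and 0% of 12596 in D3. In SAT of the D4 set edgeR gave 944 genes, and in the D3 set 629 genes, at an unadjusted p under 0.05. DESeq2 called none of the 10 genes in either. Slc2a4 had 199, 201, 303 and 212 CPM in DTR+ SAT, against 211, 269, 299.7 and 236 CPM in DTR- SAT of the D4 set, and its log2 fold change was -0.15 ± 0.15 (SE, edgeR adjusted p = 0.859). Pygl had 266, 324, 559 and 428 CPM in DTR+ SAT, against 296, 513, 633 and 463 CPM in DTR- SAT, giving -0.27 ± 0.26 (SE, edgeR adjusted p = 0.859). The groups overlapped in all 10 genes of both sets. The median log2 fold change of the 10 genes was -0.24 in D4 and -0.20 in D3, against 0.00 over all genes tested in each. The difference between the fats was tested as an interaction. In D4 edgeR called it for Slc2a4 alone, at -0.73 ± 0.20 (SE, edgeR adjusted p = 0.0416), against 4.11% of 13502 genes tested (3.06% higher and 1.05% lower). That call was lost in 12 of the 16 fits that left out 1 library, at edgeR adjusted p of 0.0527 to 0.114. The 12 libraries were replicates 2, 3 and 4 of both BAT groups, replicates 1, 2 and 4 of DTR- SAT and replicates 1, 3 and 4 of DTR+ SAT. Pygl gave -1.26 ± 0.38 (SE, edgeR adjusted p = 0.0816) and Slc2a1 1.29 ± 0.39 (SE, edgeR adjusted p = 0.0704). DESeq2 called it for these 2 genes too, Pygl at -1.27 (adjusted p = 0.00535) and Slc2a1 at 1.28 (adjusted p = 0.0316), and edgeR called Pygl without DTR+ BAT replicate 3 (edgeR adjusted p = 0.0474). With a block for replicate number within genotype, edgeR called Pygl at -1.29 (edgeR adjusted p = 0.000777). The labels do not say that these numbers join BAT and SAT of the same mouse. In D3 the interaction was called for none of the 10 genes (0.0675% of 13325 genes tested, 0.06% higher and 0.0075% lower, 1459 at an unadjusted p under 0.05, and none of the 10 in DESeq2).

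Around the 10 genes, other steps of glucose handling were counted from lists of the same pathways. In BAT of the D4 set, 13 of 23 tested genes of hexokinases and glycolysis were lower and 1 was higher, with a median log2 fold change of -0.44. By p the first were Pfkl (-0.79 ± 0.12), a form of phosphofructokinase, Gpi1 (-0.80 ± 0.13), Pgam1 (-0.58 ± 0.10) and Gapdh (-0.89 ± 0.15). The higher gene was Hk3 (3.17 ± 0.69), a hexokinase known from myeloid cells. Of the 14 genes around pyruvate entry into mitochondria, 10 were lower and none higher (median -0.61). This list joins the pyruvate carrier and dehydrogenase with the kinases that switch the dehydrogenase off, the phosphatases that switch it on and pyruvate carboxylase. All 7 carrier and dehydrogenase genes were lower (Mpc1, Mpc2, Pdha1, Pdhb, Dlat, Dld and Pdhx), first by p the dehydrogenase parts Dlat (-0.87 ± 0.10), Pdha1 (-0.75 ± 0.10) and Pdhx (-0.75 ± 0.10) and the carrier part Mpc2 (-0.65 ± 0.09). The other lower genes were the kinases Pdk1 (-0.85 ± 0.12) and Pdk2 (-0.43 ± 0.09) and the carboxylase Pcx (-0.41 ± 0.08). Of 22 tested further genes of glycogen metabolism 4 were lower, among them Ugp2 and Pgm1, which make the sugar donor, and the kinase Gsk3b. Of 15 genes from the insulin receptor to GLUT4, the receptor substrate Irs2 was higher (1.53 ± 0.35) and 2 were lower, among them the kinase Akt2 (-0.38 ± 0.10). No other glucose transporter of 5 tested was called, and of 7 genes of carbohydrate sensing Mlxipl, the factor ChREBP, was lower (-0.77 ± 0.20). The values are log2 fold changes of DTR+ over DTR- with SE, all called at an edgeR adjusted p under 0.05, as were 16.1% of all genes tested.

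In the D3 set, 9 of 24 glycolytic genes were lower and none higher (median -0.39), led by Pfkl (-0.87 ± 0.12), Pfkp (-1.13 ± 0.15), Pkm (-0.74 ± 0.11) and Eno1 (-0.99 ± 0.15). The 5 lower genes of the 14 around pyruvate entry were the carrier part Mpc1 and the dehydrogenase genes Pdha1, Pdhb, Dlat and Pdhx (median -0.42). Over all genes tested 3.52% were called. Of 23 further glycogen genes Ugp2 alone was lower. None was called among 3 tested transporters, 15 insulin signalling and 7 sensing genes. In SAT no gene of these 6 lists was called in either set.

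**Figure D3:**
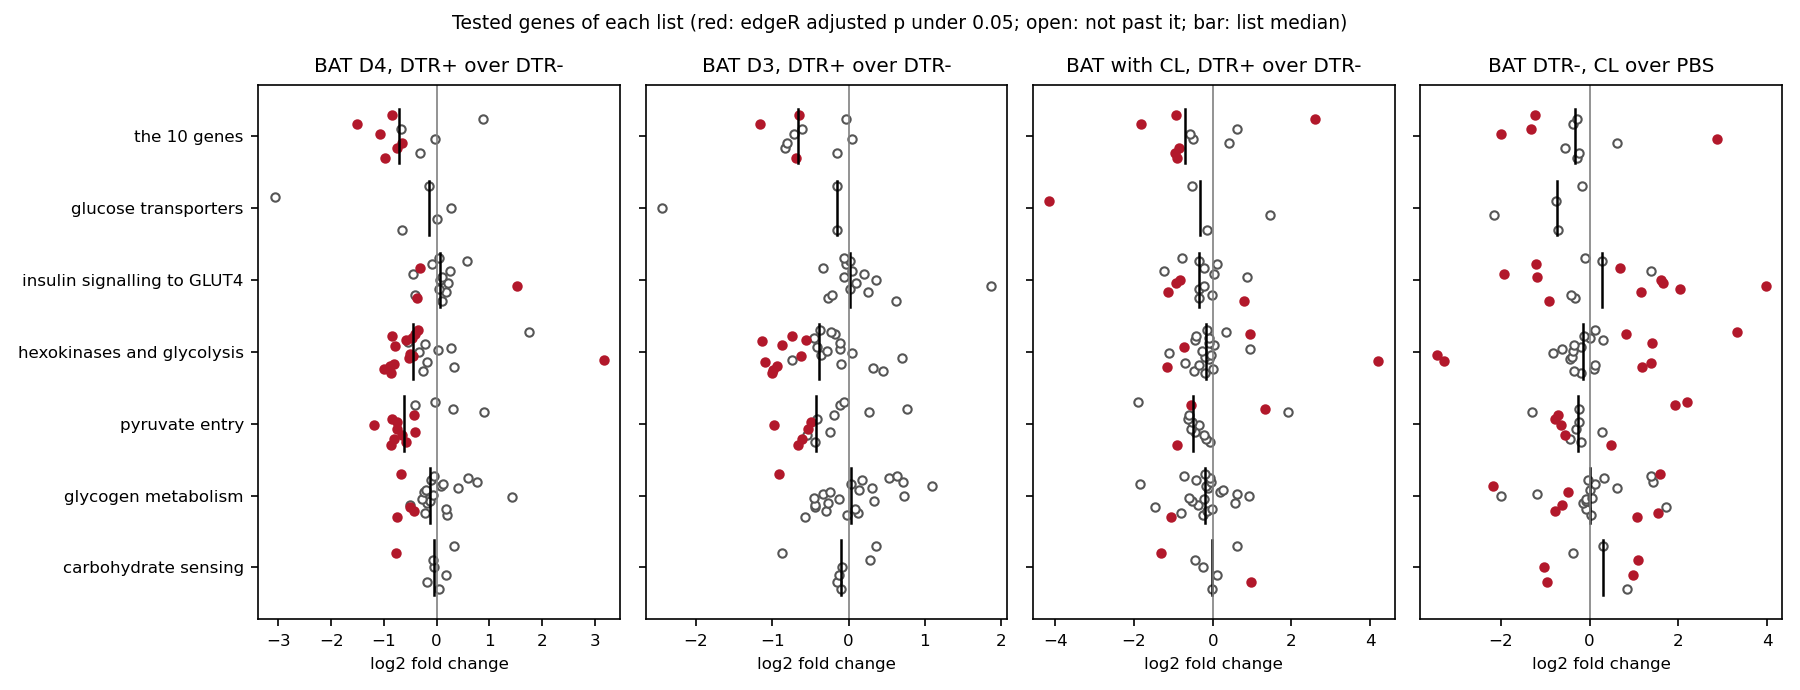
Log2 fold changes of the tested genes in the set of 10 and in 6 pathway lists, in 4 comparisons within BAT. Each point is a gene, red points passed an edgeR adjusted p under 0.05 and bars are list medians. In the D4 and D3 sets the red points of glycolysis and pyruvate entry lie left of 0 with Hk3 as the single exception at 3.17 in D4, while under CL over PBS they lie on both sides.

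CL was compared with PBS in DTR- mice to see how BAT responds to beta-3 adrenergic stimulation. Pdk4 was higher and Slc2a4, Ppp1r3b and Ppp1r3c were lower, 4 of the 10 genes, against 28.1% of the 12048 genes tested, 16.3% higher and 11.8% lower. The median log2 fold change of the 10 genes was -0.34, against -0.03 over all genes tested. Pdk4 (chromosome 6, 5483351 to 5496309, minus strand) had 6130.5, 4828 and 5808 CPM with CL, against 767, 715 and 836 CPM with PBS. Its log2 fold change was 2.86 ± 0.17 (SE, edgeR adjusted p = 1.32e-07), a 7.26-fold higher level. Ppp1r3b had 64.8, 64.5 and 104 CPM with CL, against 268, 404 and 267 CPM with PBS, and its log2 fold change was -2.004 ± 0.28 (SE, edgeR adjusted p = 0.00016). Ppp1r3c had 63.3, 39.8 and 52.5 CPM with CL, against 94.7, 149 and 141 CPM with PBS, giving -1.31 ± 0.28 (SE, edgeR adjusted p = 0.00378). Both glycogen-targeting phosphatase subunits among the 10 genes were thus lower in each CL library than in any PBS library. Slc2a4 had 159, 134 and 217 CPM with CL, against 359, 481 and 359 CPM with PBS, giving -1.23 ± 0.19 (SE, edgeR adjusted p = 0.000397) without overlap. Hk2 had 498, 296 and 570.4 CPM with CL, against 213, 356 and 311 CPM with PBS, and its overlapping groups gave 0.63 ± 0.24 (SE, edgeR adjusted p = 0.0657). The glycogen enzymes Pygl (-0.38 ± 0.17), Gys1 (-0.25 ± 0.21), Gys2 (-0.55 ± 0.22) and Gbe1 (-0.29 ± 0.18) were not called, at edgeR adjusted p of 0.0805 or more. Without 1 library some genes passed: Hk2 without CL replicate 2 (edgeR adjusted p = 0.0155), Pygl without PBS replicate 1 (0.0472), and Gys2 without PBS replicate 1 (0.0425) or DTR+ CL replicate 2 (0.0477), which shares the fit. Macrophage and monocyte markers were lower in 4 of 10, with sums of 203 to 216 CPM with CL, against 298 to 797 CPM with PBS, and brown adipocyte markers were higher in 3 of 7, with sums of 24200 to 29490 CPM with CL, against 17580 to 20750 CPM with PBS. No marker of either list was at 0. T and NK cell markers were lower in 5 of 9, with sums of 3.37, 4.09 and 6.88 CPM with CL, where Cd8a and Cd8b1 were at 0, against 7.71, 17.1 and 146 CPM with PBS. At such low levels a marker can pass the filter through another group of the fit alone, so their shared direction carries no weight. The B cell marker tested was lower, and endothelial markers were higher in 3 of 5, with sums of 429 to 461 CPM with CL, against 172 to 287 CPM with PBS. Their part in these changes was not tested.

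Beta-adrenergic signals act in part through cyclic AMP and factors that bind the letters TGACGTCA or the shorter site TGACG. RefSeq promoters (GRCm38.p6, from 250 bases before to 50 after the annotated start) were available for 7 of the 10 genes, and the 4 shown are those of 2 genes called under CL, Pdk4 and Ppp1r3c, and of 2 genes that were not, Hk2 and Pygl. They were searched on both strands for TGACGTCA and for TGACG alone. They were also searched for CACGTG, the E-box bound by basic helix-loop-helix factors, for the repeat DR1 of nuclear receptors, which is AGGTCA given again after 1 base of any kind, and for TTCNNNGAA, bound by STAT factors. All 4 genes are on the minus strand, the sequences are given in the direction of transcription, and capitals mark a match. A full TGACGTCA also holds the shorter site, in both directions.
Pdk4 promoter, chr6:5496229-5496528: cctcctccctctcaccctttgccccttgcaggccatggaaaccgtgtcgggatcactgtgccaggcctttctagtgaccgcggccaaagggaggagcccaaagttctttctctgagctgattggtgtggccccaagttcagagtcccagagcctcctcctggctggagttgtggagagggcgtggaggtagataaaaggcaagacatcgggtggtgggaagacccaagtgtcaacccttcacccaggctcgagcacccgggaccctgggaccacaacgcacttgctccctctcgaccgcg
Ppp1r3c promoter, chr19:36736555-36736854: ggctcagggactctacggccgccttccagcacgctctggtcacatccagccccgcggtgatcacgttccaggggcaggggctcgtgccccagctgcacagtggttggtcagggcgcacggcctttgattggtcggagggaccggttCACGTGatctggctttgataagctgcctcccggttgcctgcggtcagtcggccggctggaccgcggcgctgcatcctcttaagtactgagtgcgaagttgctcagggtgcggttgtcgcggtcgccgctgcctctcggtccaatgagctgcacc
Hk2 promoter, chr6:82774405-82774704: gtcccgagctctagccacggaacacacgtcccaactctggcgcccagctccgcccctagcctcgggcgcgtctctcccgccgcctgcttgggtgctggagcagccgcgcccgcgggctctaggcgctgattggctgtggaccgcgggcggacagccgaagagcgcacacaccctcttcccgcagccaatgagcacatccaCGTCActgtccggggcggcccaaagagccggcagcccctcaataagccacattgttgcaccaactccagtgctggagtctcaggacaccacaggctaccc
Pygl promoter, chr12:70227634-70227933: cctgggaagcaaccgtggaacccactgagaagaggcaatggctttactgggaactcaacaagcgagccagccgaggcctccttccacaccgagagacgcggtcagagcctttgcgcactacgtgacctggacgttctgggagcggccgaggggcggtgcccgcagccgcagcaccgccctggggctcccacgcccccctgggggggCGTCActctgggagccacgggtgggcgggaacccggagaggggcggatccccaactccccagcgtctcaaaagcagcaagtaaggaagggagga

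The Hk2 and Pygl windows each hold 1 short site, which reads CGTCA on the strand given, at positions -50 and -44 from the start, and 20.8% of 32851 RefSeq promoters of that length hold one. The Ppp1r3c window holds 1 E-box at position -104, as do 7.15% of promoters. The Pdk4 window holds none of the 5 motifs. TGACGTCA is held by 1.79% of promoters, the DR1 repeat by 0.0396% and TTCNNNGAA by 8.3%. A match describes letters and no match says only that these letters are not in the window. The RefSeq start used for Pygl lies inside the GENCODE gene, downstream of its first exon start.

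Among the pathway lists, CL gave calls in both directions, beside 16.3% higher and 11.8% lower over all genes tested. At 7 of 22 and 7 of 23 genes called, glycolysis and further glycogen genes were near that background. Of 15 insulin signalling genes 6 were higher and 4 lower, with Irs2 (3.96 ± 0.30), Pdpk1 (1.60 ± 0.21) and Lnpep (1.65 ± 0.25) higher and Sort1 (-1.20 ± 0.19) lower. Of 22 glycolytic genes 5 were higher and 2 lower, with Pfkp (1.40 ± 0.20), Gapdh (1.17 ± 0.27) and the lactate exporter Slc16a3 (3.31 ± 0.78) higher and Pfkfb1 (-3.45 ± 0.32) lower. Of 14 genes around pyruvate entry 3 were higher and 4 lower, with the dehydrogenase phosphatase Pdp2, which opposes Pdk4, higher (1.91 ± 0.15) and Pdhb, Mpc2 and the kinases Pdk1 and Pdk2 lower. Of 23 further glycogen genes 3 were higher and 4 lower. Ugp2 (1.59 ± 0.20) was higher, while Pgm1 (-0.62 ± 0.17) and another phosphatase subunit, Ppp1r3d (-2.18 ± 0.34), were lower. Mlxip and Hif1a were higher and Mlx and Foxo1 lower among 7 sensing genes. These are log2 fold changes of CL over PBS with SE, called at an edgeR adjusted p under 0.05.

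Under CL, DTR+ mice were set against DTR- mice, which also served as the CL group above. Of the 10 genes 1 was higher and 5 lower, against 7.72% of 12048 genes tested in either direction, 4.51% higher and 3.21% lower. Their median log2 fold change was -0.71, against 0.01 over all genes tested. Slc2a1 (chromosome 4, 119108711 to 119137983, plus strand) had 28.0, 18.5 and 12.1 CPM in DTR+ mice, against 2.62, 1.72 and 5.17 CPM in DTR- mice. Its log2 fold change was 2.60 ± 0.48 (SE, edgeR adjusted p = 0.00695), a 6.07-fold higher level. Slc2a4 changed in the other direction, so the levels of the pair came closer, with Slc2a4 still the higher. Slc2a4 had 85.7, 84.0 and 90.0 CPM in DTR+ mice, against 159, 134 and 217 CPM in DTR- mice, giving -0.94 ± 0.19 (SE, edgeR adjusted p = 0.0106). Pygl had 197, 181 and 185 CPM in DTR+ mice, against 611, 658 and 766 CPM in DTR- mice. These DTR+ libraries lay close together and below the DTR- libraries, with a log2 fold change of -1.82 ± 0.17 (SE, edgeR adjusted p = 0.000146).

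The synthases and the branching enzyme were lower as well. Gys1 had 87.2, 136 and 86.2 CPM in DTR+ mice, against 199, 183 and 232 CPM in DTR- mice, and a log2 fold change of -0.96 ± 0.21 (SE, edgeR adjusted p = 0.0156). Gys2 had 63.6, 46.2 and 74.1 CPM in DTR+ mice, against 120.2, 89.8 and 128 CPM in DTR- mice, and gave -0.85 ± 0.23 (SE, edgeR adjusted p = 0.0366). Gbe1 had 187, 153 and 192 CPM in DTR+ mice, against 292, 331 and 404 CPM in DTR- mice, and gave -0.92 ± 0.18 (SE, edgeR adjusted p = 0.00803). None of these groups overlapped, and neither did those of Pdk4, at 3484, 4409 and 3694 CPM in DTR+ mice, against 6130.5, 4828 and 5808 CPM in DTR- mice, which gave -0.50 ± 0.16 (SE, edgeR adjusted p = 0.0668). Pdk4 was called in DESeq2 (adjusted p = 0.0226) and without DTR+ replicate 2 (edgeR adjusted p = 0.0391) or PBS replicate 3 (0.0475), which shares the fit. Hk2 (0.42 ± 0.24), Ppp1r3b (-0.57 ± 0.27) and Ppp1r3c (0.63 ± 0.28) overlapped and were not called. The Gys1 call was lost without DTR+ replicate 1, DTR+ replicate 3 or DTR- replicate 3 (edgeR adjusted p of 0.0641, 0.0829 and 0.0501). The Gys2 call was lost without any of the 3 DTR+ libraries or DTR- replicate 1 or 3 (0.0632 to 0.1). Macrophage and monocyte markers were higher in 9 of 10 and summed to 1048 to 1225 CPM in DTR+ mice, against 203 to 216 CPM in DTR- mice, with none at 0. Brown adipocyte markers were lower in 3 of 7 and summed to 19300 to 25410 CPM in DTR+ mice, against 24200 to 29490 CPM in DTR- mice. T and NK cell markers were higher in 3 of 9 and summed to 67.1 to 80.3 CPM in DTR+ mice, against 3.37 to 6.88 CPM in DTR- mice. Such markers can pass the filter through the groups where they are high, so their shared direction carries no weight here either. The part of these lists was not tested. Of the pathway lists, Hk3 (4.21 ± 0.91), Slc16a1, Pdp1, Akt1 and Foxo1 were higher. The transporter Slc2a5 (-4.15 ± 0.96), Insr (-1.14 ± 0.23), Pdpk1, Lnpep, Pfkl, Gapdh, Dlat, Pdp2 and Mlxipl (-1.31 ± 0.26) were lower.

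**Figure D4:**
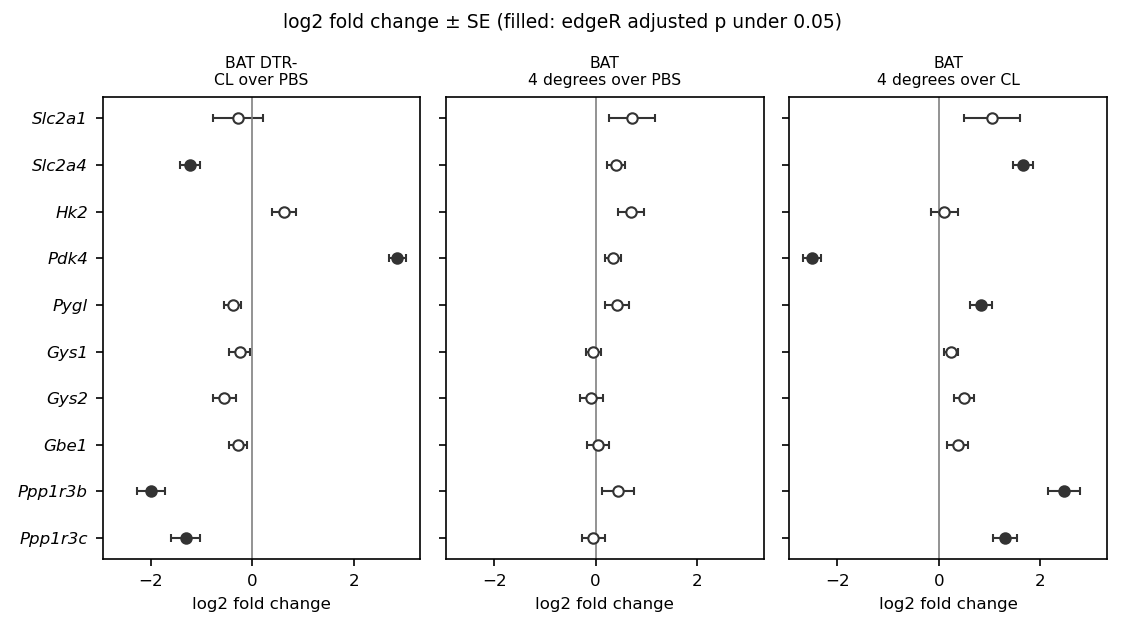
Log2 fold change with its SE for each of the 10 genes in BAT, for CL over PBS, 4 degrees over PBS and 4 degrees over CL. Filled points passed an edgeR adjusted p under 0.05. The 3 panels share groups: Pdk4 lies at 2.86 under CL and at -2.49 for 4 degrees over CL, and no point is filled for 4 degrees over PBS.

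Mice at 4 degrees were compared with DTR- mice given DT and PBS, to see the response to cold. Both this comparison and that of CL use the PBS libraries. None of the 10 genes was called in edgeR, against 8.66% of 12329 genes tested (4.86% higher, 3.8% lower, 2920 at an unadjusted p under 0.05), while DESeq2 called 1, Hk2 (adjusted p = 0.0386). The median log2 fold change of the 10 genes was 0.36, against 0.00 over all genes tested. Hk2 had 669, 367 and 417 CPM at 4 degrees, against 213, 356 and 311 CPM with PBS, without overlap and with a log2 fold change of 0.70 ± 0.26 (SE, edgeR adjusted p = 0.129). Slc2a1 did not overlap either, at 4.90, 8.08 and 7.07 CPM at 4 degrees, against 4.75, 4.44 and 2.92 CPM with PBS, and gave 0.71 ± 0.45 (SE, edgeR adjusted p = 0.381). Slc2a4 gave 0.39 ± 0.18 (SE, edgeR adjusted p = 0.201) and Pdk4 0.33 ± 0.16 (SE, edgeR adjusted p = 0.229). The choice of controls set the sign for some genes. Against DTR- mice of the D3 set, Slc2a4 was at -0.71 (edgeR adjusted p = 0.00723) and Pygl at -0.85 (edgeR adjusted p = 0.0292), while against PBS they were at 0.39 and 0.42. Against DTR- mice of the D4 set, Gys2 was at 0.43 (edgeR adjusted p = 0.039), and against PBS at -0.08. Gys1 was called lower against D3 (-0.53, edgeR adjusted p = 0.00747) and D4 controls (-0.44, edgeR adjusted p = 0.0112). The cold mice had no DT by their labels and carry WT in their titles. DT, any difference of strain or set, and cold therefore cannot be told apart here. In the pathway lists the genes higher with cold were Hk1, Pfkl, Pgk1, Mpc2, Pdp2 and Gsk3b, and those lower were Pfkm, Pcx, Pgm1, Pygb and Phka2. Of the cell markers, endothelial Pecam1, Kdr and Emcn were called higher, and macrophage Adgre1 and adipocyte Adipoq, Plin1 and Pnpla2 lower. Brown adipocyte markers went both ways, with Ucp1 and Elovl3 higher and Cidea and Cox8b lower. The liver markers Alb (7.51 ± 2.34) and Apoa2 (3.45 ± 1.07) were not called, at edgeR adjusted p of 0.144 and 0.0825. The part of these markers was not tested.

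Set against CL, 4 degrees gave 4 higher genes and 1 lower, against 32.2% of 12206 genes tested, 14.9% higher and 17.3% lower. Its libraries also stand in the comparisons of either stimulus with PBS. The median of the 10 genes was 0.67, against 0.05 over all genes tested. Pdk4 had 948, 814 and 1202 CPM at 4 degrees, against 6130.5, 4828 and 5808 CPM with CL, and a log2 fold change of -2.49 ± 0.18 (SE, edgeR adjusted p = 1.44e-06). Ppp1r3b had 647, 286 and 350.3 CPM at 4 degrees, against 64.8, 64.5 and 104 CPM with CL, giving 2.47 ± 0.32 (SE, edgeR adjusted p = 0.000304), a 5.53-fold higher level. Slc2a4 gave 1.66 ± 0.19 (SE, edgeR adjusted p = 5.23e-05) and Ppp1r3c 1.30 ± 0.23 (SE, edgeR adjusted p = 0.00105), both without overlap. Pygl had 1653, 829.6 and 1121 CPM at 4 degrees, against 611, 658 and 766 CPM with CL. It gave 0.84 ± 0.22 (SE, edgeR adjusted p = 0.0125), a call lost without replicate 1 at 4 degrees (edgeR adjusted p = 0.0502) or CL replicate 1 (edgeR adjusted p = 0.0655). The transcripts of the transporter of insulin-driven uptake and of both phosphatase subunits among the 10 genes thus were higher at 4 degrees than with CL. The CL mice had DT and the cold mice had none by their labels. DT, any difference of strain or set, and the stimulus cannot be told apart here either.

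PC61 in wild-type mice gave no call among the 10 genes in edgeR, against 0.651% of 11513 genes tested (0.165% higher, 0.486% lower, 1247 at an unadjusted p under 0.05). DESeq2 called Hk2 (adjusted p = 8.27e-05), Gys2 (0.031) and Ppp1r3b (0.0487) lower. The median log2 fold change of the 10 genes was -0.29, against 0.02 over all genes tested. Hk2 had 276, 489 and 337 CPM with PC61, against 699, 771 and 653 CPM with isotype. Its groups did not overlap, its log2 fold change was -0.92 ± 0.19 (SE, edgeR adjusted p = 0.0608), and without PC61 replicate 2, the library with the highest muscle marker sum (9691 CPM), it was -1.19 and called (edgeR adjusted p = 0.00193). Ppp1r3b was called without isotype replicate 1 (-0.85, edgeR adjusted p = 0.0435) and Slc2a4 without PC61 replicate 3 (-0.57, edgeR adjusted p = 0.0475). Slc2a4 had 492, 531 and 674 CPM with PC61, against 755, 763 and 777 CPM with isotype, without overlap, and gave -0.42 ± 0.12 (SE, edgeR adjusted p = 0.174). Gys2 (-0.67 ± 0.19) and Gbe1 (-0.31 ± 0.12) had every PC61 library below every isotype library, and Slc2a1 (1.34 ± 0.51) had every one above, at edgeR adjusted p of 0.187, 0.347 and 0.331. Pfkp (-0.59, edgeR adjusted p = 0.0478) and Mlxipl (-0.75, edgeR adjusted p = 0.0252) were the called genes of the pathway lists, both lower. Muscle markers summed to 276 to 9691 CPM with PC61, against 5.56 to 2350 CPM with isotype. With that sum as a covariate Hk2 and Gys2 were called.

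The antibody against interferon gamma in DTR+ mice gave 1 higher gene, Ppp1r3b, against 0.541% of 12017 genes tested, 0.0333% higher and 0.508% lower. The median log2 fold change of the 10 genes was 0.30, against 0.01 over all genes tested. Ppp1r3b had 332, 276 and 352 CPM with the antibody, against 162, 174 and 232 CPM with isotype. The groups did not overlap and the log2 fold change was 0.74 ± 0.14 (SE, edgeR adjusted p = 0.0184). The call was lost without antibody replicate 1 (edgeR adjusted p = 0.103) or 4 (0.126) and without isotype replicate 3 (0.114) or 4 (0.136), and with muscle markers as a covariate (0.0914). Gbe1 had 271, 254 and 359 CPM with the antibody, against 169, 209 and 221 CPM with isotype, and gave 0.54 ± 0.14 (SE, edgeR adjusted p = 0.16). Gys1 gave 0.35 ± 0.11 (SE, edgeR adjusted p = 0.302), also without overlap, and Pygl 0.53 ± 0.21 (SE, edgeR adjusted p = 0.57). Slc2a1 and Pdk4 had log2 fold changes of -0.02 and 0.04. Muscle markers summed to 1020 to 5641 CPM with the antibody, against 13.6 to 2809 CPM with isotype, and macrophage and monocyte markers to 666 to 907 CPM with the antibody, against 686 to 1465 CPM with isotype. No gene of the pathway lists was called. In edgeR 982 genes had an unadjusted p under 0.05.

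Between the fats of DTR- mice, all 10 genes differed in the D4 set, 9 higher and 1 lower in BAT than in SAT, against 50.9% of 12310 genes tested, 25.9% higher and 25% lower. In the D3 set 9 were higher, against 45.9% of 12387 genes tested, 23% higher and 22.9% lower. The median of the 10 genes was 1.66 in D4 and 1.63 in D3, against 0.01 and -0.02 over all genes tested. Pdk4 had the largest difference in D4, with 954, 920.2, 1191 and 821 CPM in BAT, against 37.4, 28.6, 137 and 84.1 CPM in SAT, a log2 fold change of 3.81 ± 0.55 (SE, edgeR adjusted p = 0.00105). In D3 it was 3.82 ± 0.85 (SE, edgeR adjusted p = 0.0223), a call lost without BAT replicate 2 (edgeR adjusted p = 0.0648), BAT replicate 3 (0.0658) or SAT replicate 1 (0.0661), and with the muscle covariate (0.27). Ppp1r3b had 319.6, 567, 435 and 469 CPM in BAT, against 20.2, 37.8, 41.0 and 40.6 CPM in SAT of D4, a 13.4-fold higher level with a log2 fold change of 3.75 ± 0.26 (SE, edgeR adjusted p = 1.23e-06). Hk2 gave 2.27 ± 0.18 (SE, edgeR adjusted p = 3.73e-07) and Ppp1r3c 2.07 ± 0.23 (SE, edgeR adjusted p = 1.8e-05) in D4. The enzymes of the glycogen particle differed less, with log2 fold changes of 1.78 ± 0.22 for Pygl, 1.54 ± 0.21 for Gbe1, 1.16 ± 0.32 for Gys2 and 0.98 ± 0.12 for Gys1. Slc2a4 gave 1.35 ± 0.13 (SE, edgeR adjusted p = 8.78e-07). Slc2a1 alone was lower in BAT of D4, at -0.84 ± 0.31 (SE, edgeR adjusted p = 0.0367), and in D3 it was at 0.42 ± 0.39 (SE, edgeR adjusted p = 0.399). The D4 call of Slc2a1 was lost without BAT replicate 1 or 3 or SAT replicate 1, 2 or 3 (edgeR adjusted p of 0.0591 to 0.0952) and with the muscle covariate (0.0535). All 10 macrophage and monocyte markers were lower in BAT, with sums of 166 to 388 CPM in BAT, against 1058 to 2799 CPM in SAT of D4, and their part was not tested.

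Over the 38 BAT libraries, log2 levels of several of the genes ran together (Pearson's r across libraries that share groups, treatments and depth, given as a description). Slc2a4 and Ppp1r3b had r = 0.965, Pygl and Gbe1 had r = 0.952, while Pdk4 ran against Slc2a4 with r = -0.701. Among 7627 genes of at least 10 CPM, those closest to Slc2a4 were Thrsp (0.965) and Zadh2 (0.959) beside Ppp1r3b, and those closest to Ppp1r3b were Thrsp (0.953) and Acaca (0.944), the acetyl-CoA carboxylase of fatty acid synthesis. Pygl was closest to the pentose phosphate enzyme Tkt (0.976) and, after Gbe1, to Acly (0.95), which makes cytosolic acetyl-CoA. Gbe1 was closest after Pygl to Hadha (0.947) and Pdha1 (0.946). The nearest genes were Dag1 (0.925), Pdk2 (0.923) and Fastk (0.921) for Gys1, Hsd17b4 (0.867), Pdhx (0.864) and Otop1 (0.858) for Gys2, and Ppp1r15b (0.945), Cdc27 (0.928) and Elmod2 (0.922) for Pdk4. Hk2 was closest to Gja1 (0.871), Pfkp (0.83) and Hspb8 (0.817) and Ppp1r3c to Lypla1 (0.755), Acat2 (0.745) and Rbck1 (0.738). Slc2a1 averaged under 10 CPM in BAT and was not placed.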

How the data were processed

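Whole tissue entered with 2 ng of RNA, and libraries were made by oligo(dT) priming, Smart-seq2 and Nextera XT, per the labels' protocols. The deposited values are raw counts per gene, which the authors made with STAR 2.7.3a on mm10 and featureCounts, as the submitters' processing notes name them. Annotation release, strand and treatment of reads with several matches were not given in the sources used here. Reads were amplified without molecular identifiers, so counts are not independent molecules. Totals of 3007241 to 9673342 counts per library leave Slc2a1 with the lowest counts of the 10 genes.

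The whole table went through edgeR 4.0.16 in R 4.3.3: filterByExpr, TMM, the robust quasi-likelihood F test and Benjamini-Hochberg adjustment over all genes tested, with a threshold of 0.05. A fit held the 3 groups of the CL set, 1 fit per set held the 4 groups of its interaction, and other comparisons had a fit each. SE was taken as the absolute log2 fold change divided by the root of F. CPM are scaled by TMM over the 52 whole-fat libraries, per kb of GENCODE M21 exons where said. Correlations used log2 CPM with a prior count of 2. The 10 genes and the lists were chosen with earlier results of these data known. Of each pathway list, called genes are named up to 4 by p, or all where 5 or fewer were called, and a few further called genes were named after their values were seen. Nearest genes are the 3 of highest r among genes of at least 10 CPM. Replicate pairs, 60 in all, showed more than sampling noise between them, with chi-square over degrees of freedom at 7.14 to 37.6 for genes of 20 counts or more. The procedure was tested on simulated counts. Some results of the pathway lists are not reported here. Alternatives were DESeq2 1.42.0, a replicate block, RLE scaling, no filter on low counts, other groups in the fit, other cold controls, each library left out in turn and, chosen after seeing the data, the summed muscle markers as a covariate and 2 SAT libraries that stand apart left out together. The 8 libraries of sorted Treg cells enter no comparison here.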

Additional observations from a re-analysis of the deposited data

Results flagged for a closer look

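In SAT, 2 libraries stood apart for a member. Ppp1r3b in DTR- SAT of the D4 set had its lowest library, replicate 1, at 20.2 CPM, against 37.8 to 41.0 CPM in the other libraries of the group. Slc2a4 in DTR+ SAT of the D4 set had its highest library, replicate 3, at 303 CPM, against 199 to 212 CPM in the others. That library also had the highest muscle marker sum in SAT, 3375 CPM, and its part was not tested. A gap of this size was found in 2 of 40 combinations of gene and group examined, all of them in groups of the D4 set. Chance gives about 1 in 20 where the values are independent, but genes of the same group share libraries.

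For Slc2a4 in the D4 set, the DTR+ over DTR- change was called as different between the fats, with an interaction of -0.73 on the log2 scale (edgeR adjusted p = 0.0416). As given above, that call was lost in 12 of the 16 fits that left out 1 library.

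The sorted Treg libraries, which no comparison used, held counts of most of the 10 genes. Mean levels over the 8 libraries were 29.6 CPM for Gbe1, 29.4 CPM for Slc2a1, 22.8 CPM for Gys1, 14.3 CPM for Ppp1r3b, 5.31 CPM for Hk2, 1.65 CPM for Pygl, 0.275 CPM for Ppp1r3c and 0.0955 CPM for Gys2. Slc2a4 had 2 counts and Pdk4 had 3 counts over all 8 libraries, at or under the limit that a count of 0 allows (3 counts).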

How the results depend on the processing

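Counts of the 10 genes called moved under some settings. The share of all genes called was taken in the main edgeR fits only. No such share stands beside the counts under other settings, here or above, so those counts show nothing particular to the 10 genes. In BAT of D4 (6 called) DESeq2 gave 9, adding Gys1, Ppp1r3c and Slc2a1, the last of them higher. Without the filter CL (4) gave 6 and cold against CL (5) gave 7. For DTR+ over DTR- in BAT of D3 (3 called) DESeq2 and no filter on low counts gave 5, the 4 groups fitted together gave 0 and the muscle covariate gave 1. For PC61 (0) DESeq2 gave 3, no filter 4, the replicate block 1 and the muscle covariate 2. For the antibody against interferon gamma (1) no filter gave 3 and the muscle covariate 0. For cold (0) DESeq2 gave 1, no filter 2, D3 controls 3 and D4 controls 2, with reversed signs for Slc2a4 (-0.71) and Pygl (-0.85) against D3 controls and for Gys2 (0.43) against D4 controls. For the D4 interaction (1) DESeq2 gave 3 and the replicate block 2, and for the D3 interaction (0) no filter gave 1. The cause was not tested, except that no filter and other groups change the genes and libraries fitted. Leaving out each library in turn gave 5 to 7 calls in BAT of D4, 0 to 4 in BAT of D3, 4 to 6 for CL, 4 to 7 for DTR+ under CL, 0 to 1 for PC61, for the antibody against interferon gamma and for the D4 interaction, 0 for cold, both SAT sets, the D3 interaction and D4 against D3, 4 to 5 for cold against CL, 9 to 10 between fats in D4 and 8 to 9 in D3. Without the filter the depot calls of Gys2 in D4 (edgeR adjusted p = 0.0751) and Pdk4 in D3 (0.0625) were lost. Of 2059 alternative values 1936 kept direction and call, or, in 90 of them, changed the sign of a value not called in either fit, 63 lost the call, 57 gained one and 3 reversed.

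The labels do not say that replicate numbers pair the libraries. In no comparison did every same-numbered pair deviate together (r over 0.1 in 2 of 4 pairs at most), and libraries did not all correlate best with their own number. Between the fats of DTR- mice, same-numbered pairs had r of 0.0364 to 0.122 in D4 and -0.136 to -0.0269 in D3. This check is weak and cannot settle whether libraries of the same number share a mouse. The replicate block ended the calls of Hk2 in BAT of D4 (edgeR adjusted p = 0.173) and Slc2a4 in BAT of D3 (0.0892) and ended no other call of the 10 genes. For the antibody against interferon gamma no paired analysis was possible because the groups share 1 number. Slc2a1, at 0.959 to 28.0 CPM in BAT, is the gene that depth limits most.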

Other observations

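The DTR- BAT controls, which carry the same genotype and all received DT, stood at different levels in the 3 sets. Slc2a4 averaged 856 ± 150.5 CPM in the D3 set, 617 ± 78.6 CPM in the D4 set and 399 ± 70.4 CPM in the PBS group of the CL set (SD, n = 3, 4 and 3). Pygl averaged 2133 ± 332 CPM in the D3 set, 1568 ± 256 CPM in the D4 set and 886 ± 147 CPM in the PBS group of the CL set, and Ppp1r3b 763 ± 332 CPM in the D3 set, 448 ± 102 CPM in the D4 set and 313 ± 78.9 CPM in the PBS group of the CL set. Pdk4 averaged 874 ± 403 CPM in the D3 set, 972 ± 157 CPM in the D4 set and 772 ± 60.6 CPM in the PBS group of the CL set. No test was made between these controls, since set and treatment schedule cannot be told apart. Wild-type BAT with isotype antibody, of another strain, had 765 ± 11.5 CPM of Slc2a4 and 1940.0 ± 135 CPM of Pygl (SD, n = 3 each).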
